A study of Mus musculus with 11 samples.

Results

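The extracellular matrix genes described here are the protein-coding genes whose symbol names a collagen chain (Col, a number, a and a number) or a laminin chain (Lama, Lamb or Lamc with a number), together with Hspg2, Nid1, Nid2, Fn1 and Agrn. This rule, which uses names and no measured value, found 60 genes of 31956 genes with transcripts in the files, with 44 collagen chains, 11 laminin chains and 5 others. Their RNA was measured in the livers of 11 female mice of 2 conplastic strains. A conplastic strain carries the mitochondrial DNA of another inbred strain on the nuclear genome of C57BL/6J. The 7 B6-mtALR mice (C57BL/6J-mtALR/J) carry a C-to-A change at position 4738 of the mtDNA in mt-Nd2. The 4 B6-mtBPL mice (C57BL/6J-mtBPL/J) carry a T-to-C change at position 11902 in mt-Nd5. Both genes code for subunits of complex I of the respiratory chain, and the study asked how the 2 strains differ in liver RNA. Of B6-mtALR, mice 1 to 3 were 5 months and mice 4 to 7 were 3 months old, and of B6-mtBPL, mice 1 and 2 were 3 months and mice 3 and 4 were 4 months old. No mouse with the mtDNA of C57BL/6J was among the 11, so each difference between the strains is one strain relative to the other. The extraction notes of the labels name other strains than the strain fields do, and the strain fields were used.

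Basement membranes are thin sheets of matrix under epithelia, around vessels and around muscle cells. In most tissues they are built from a laminin network and a type IV collagen network, which nidogens and the heparan sulfate proteoglycans perlecan and agrin link to each other. Fibrillar collagens, with types I and III as the main ones in liver, form the fibres of the portal tract and capsule, and type VI collagen forms beaded filaments near cells. The liver sinusoid is unusual in that its endothelium has no continuous basement membrane, and a loose matrix with fibronectin and little laminin lies in the space of Disse. Hepatocytes make the fibronectin of blood plasma and type XVIII collagen. Stellate cells, portal fibroblasts and endothelial cells make most other matrix proteins of the liver.

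Fibronectin RNA is spliced in a way that tells a plasma form from a cellular form, and the joints that separate them are shown because the RNA of Fn1 was the most abundant of the 60. Fn1 lies on the minus strand of chromosome 1 (GRCm38, chr1:71585520-71653200). Of its 7 full-length coding transcripts in GENCODE M21, 1 holds the exon known as EIIIB (273 bases, chr1:71613763-71614035) and 4 hold the exon known as EIIIA (270 bases, chr1:71603660-71603929). In the following lines the bases before the joint are in lower case and the first 20 bases after it in capitals, read 5′ to 3′ from the GENCODE transcripts.
EIIIB left out: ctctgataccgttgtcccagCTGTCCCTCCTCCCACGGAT
EIIIB kept: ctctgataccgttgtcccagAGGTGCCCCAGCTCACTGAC
EIIIA left out: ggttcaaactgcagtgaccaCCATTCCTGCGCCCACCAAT
EIIIA kept: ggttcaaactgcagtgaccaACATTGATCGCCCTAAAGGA

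The stretches just upstream of 3 genes are shown because these genes differed between the strains below, and because 2 of them share a motif that the other lacks. The sequences come from RefSeq (GRCm38.p6), which listed a window for 43 of the 60 genes, and each is read 5′ to 3′ on the strand of the gene with GGGCGG or its reverse complement CCGCCC (the GC box bound by Sp family factors) in capitals. CCAAT or its reverse complement would also be in capitals, and was not met in these stretches.
Hspg2, chr4:137468683-137468768, plus strand: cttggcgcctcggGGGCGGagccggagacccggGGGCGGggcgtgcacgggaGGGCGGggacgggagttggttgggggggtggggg
Agrn, chr4:156197489-156197608, minus strand: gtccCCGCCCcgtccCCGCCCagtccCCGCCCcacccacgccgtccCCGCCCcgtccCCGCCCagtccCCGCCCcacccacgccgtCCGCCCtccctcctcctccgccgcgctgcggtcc
Col6a3, chr1:90843972-90844091, minus strand: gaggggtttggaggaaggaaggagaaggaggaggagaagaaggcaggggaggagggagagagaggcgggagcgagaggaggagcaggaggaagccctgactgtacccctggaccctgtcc

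In the whole 250 bases before the start, on both strands, Hspg2 held the GC box 5 times, Agrn 12 times and Col6a3 0 times. Of the 43 genes with a window, 26 (60.5%) held it, compared to 35.4% of all 27025 genes in the table. The 43 genes all code for protein, whereas the 27025 outnumber the 21666 protein-coding genes of the series, so the sets are unlike. CCAAT was found in 15 of the 43 genes (34.9%) and in 37.5% of all genes, and TATAAA in 5 (11.6%) and in 14.3%. These are matches of letters and were not tested.

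The levels of the 60 genes spanned a wide range. Levels between genes are given as TPM, the share of a gene among all transcripts of a library, which is scaled for transcript length. Fn1 (fibronectin) had 310 to 633 TPM and Col18a1 (the chain of type XVIII collagen, whose end is endostatin) 217 to 331 TPM, with Fn1 above Col18a1 in 11 of 11 mice. These genes together made up 80.5 to 85.3% of the TPM of all 60 genes in a mouse. A long way below followed Col14a1 (type XIV collagen, which binds fibrils) with 15.7 to 29.7 TPM and Col3a1 (type III collagen) with 10.4 to 33.0 TPM, whose ranges overlapped.

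The next genes by mean TPM were Col4a1, Agrn, Hspg2, Col4a2, Nid1, Lamc1, Col1a2 and Lamb1, from 9.85 down to 3.97 TPM on average, and their neighbours overlapped too. Of the 60 genes, 30 had a mean above 1 TPM, and 12 had a mean under 0.1 TPM. Col2a1, the collagen of cartilage, had no count in any mouse. Together the 60 genes held 0.225 to 0.449% of the estimated counts of a liver, and 0.0351 to 0.0775% without Fn1 and Col18a1.

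Chains that join in 1 trimer were compared by the TPM of their coding transcripts. The ratio of Col4a1 to Col4a2, which form type IV collagen together, was 1.39 to 1.84 with a median of 1.51. The ratio of Col1a2 to Col1a1, the chains of type I collagen, was 1.62 to 3.37 with a median of 2.05, so the RNA of the second chain was the higher one in each of the 11 mice, although the type I trimer holds more of the first chain. These ratios assume that reads spread evenly along each transcript, which was not checked.

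The libraries differed in how reads fell on long and short transcripts, and this must stand before the strain comparison, since the matrix genes are long. The total estimated count was 18145815 to 25074045 per mouse. A length slope was computed per mouse, as the change of log2 CPM (reads of a gene scaled to the library size) with log10 transcript length after the average mouse was subtracted. B6-mtBPL mice 1 and 2, the only ones of this strain at 3 months, had the highest slopes with 0.40 and 0.49, and B6-mtBPL mice 3 and 4 had 0.08 and 0.22. The B6-mtALR mice of 3 months had -0.08, -0.42, 0.16 and -0.20, and those of 5 months -0.40, -0.40 and 0.16. A high slope means relatively more reads of long transcripts. The median length of the 42 matrix genes that could be tested was 5065 bases, compared to 2388 bases over all genes tested.

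The first comparison asked which matrix genes differed between the strains in the 8 mice of 3 to 4 months. In B6-mtALR livers, 13 of the 42 genes tested were lower and 0 were higher, by the quasi-likelihood test of edgeR with age and strain and an adjusted p-value under 0.05. Of all 13372 genes tested, 2.38% passed in either direction and 1.44% were lower. The 13 genes that passed were perlecan (Hspg2), agrin (Agrn), fibronectin (Fn1), the main type IV collagen chains (Col4a1, Col4a2), 5 laminin chains (Lama1, Lama5, Lamb1, Lamb2, Lamc1), 2 chains of type VI collagen (Col6a1, Col6a3) and Col14a1. The median log2 fold change of the 42 genes was -0.76, compared to -0.003 over all genes tested, and 36 of the 42 were below 0. At an unadjusted p under 0.05 there were 25 of the 42 genes, 1 of them higher, and 2855 of all 13372 genes tested. In 13 of the 42 genes each of the 4 B6-mtALR mice of 3 months lay below each of the 4 B6-mtBPL mice, 11 of them among the genes that passed, where 6.42% of all genes tested did so. With DESeq2, 20 of the 42 genes passed, 19 of them lower, where 7.89% of all genes passed.

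**Figure D1:**
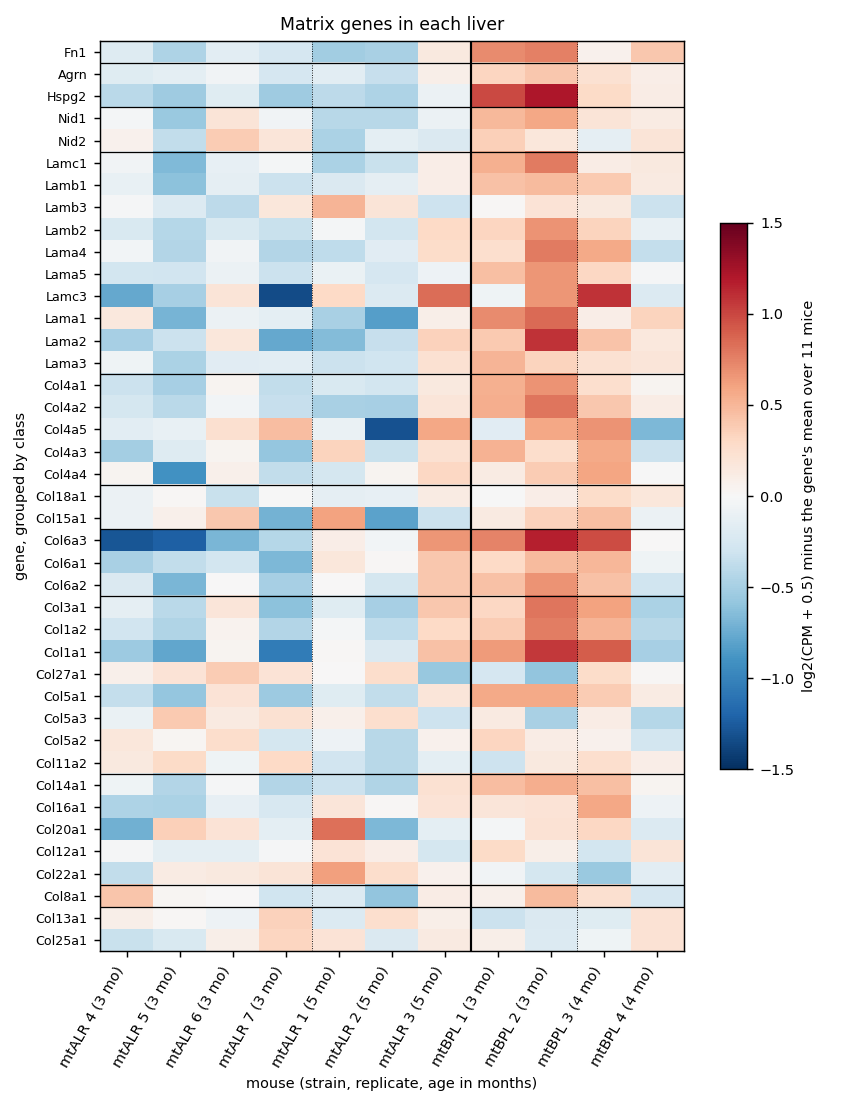
Each row is one of 41 of the 42 matrix genes tested and each column one mouse, and the colour gives log2(CPM + 0.5) minus the mean of the gene over the 11 mice. Most rows are red in B6-mtBPL mice 1 to 3 and blue in B6-mtALR mice 4, 5 and 7. B6-mtBPL mouse 4 (median 0.002) and B6-mtALR mouse 6 (median 0.006) lie near the middle, and B6-mtALR mouse 3 lies on the red side (median 0.14).

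The result depended on which libraries and which model were used. With age in the model the strain term rests on the 4 B6-mtALR and 2 B6-mtBPL mice of 3 months, which are also the B6-mtBPL libraries with the highest length slopes. Without the age term, 6 of the 42 genes remained past the threshold, all of them lower (Hspg2, Fn1, Col4a2, Lamb1, Col6a1 and Col6a3), where 0.905% of all genes were called lower. With the length trend of each mouse taken out, 1 of the 42 genes passed, Hspg2, where 0.0823% of all genes passed. The length used was weighted by TPM and was 6225 bases for Hspg2, whose coding transcripts have 14187 and 14176 bases. It was 4487 bases for Col6a3, whose transcript with most reads has 9001 bases. The trend may thus be taken out too little for such genes, which was not tested. In the length-corrected fit 32 of the 42 genes were still below 0, and the median of the 42 was -0.57. At an unadjusted p under 0.05 there were 22 lower genes and 3 higher ones (Col27a1, Col13a1 and Col5a3). Of all 13372 genes tested, 2006 had such a p in this fit. With the B6-mtBPL mice of 4 months only, 0 of the 42 genes passed by edgeR (16 at an unadjusted p under 0.05), where 0.541% of all genes passed, and the median was -0.42. With all 11 mice and age, 0 of 44 genes passed by edgeR (27 at an unadjusted p under 0.05), where 0.103% of all genes passed, and 40 of the 44 were below 0. The share of all genes at this unadjusted level is not given for either fit. Leaving out B6-mtBPL mouse 2 left 0 genes, and leaving out B6-mtBPL mouse 1, B6-mtALR mouse 4 or B6-mtALR mouse 5 left 1 gene each, Hspg2.

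**Figure D2:**
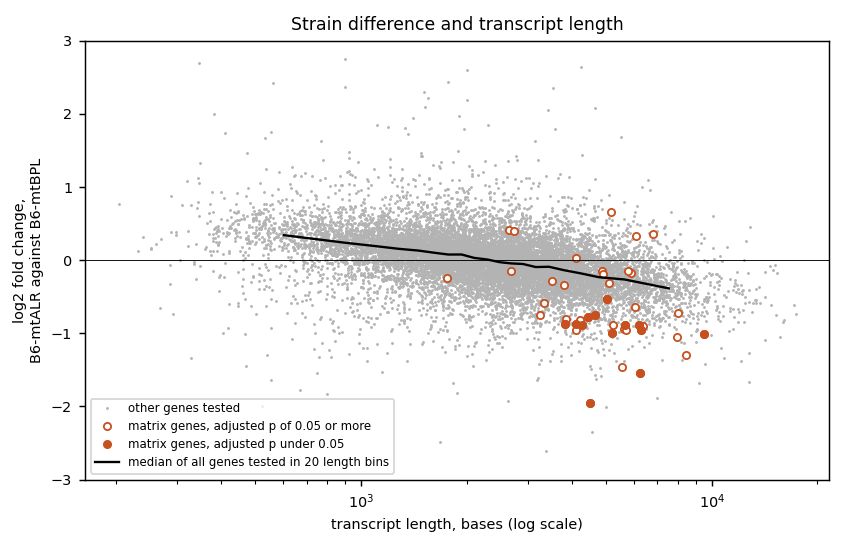
The log2 fold change between the strains in the 8 mice is plotted against transcript length on a log scale for each gene tested, with the matrix genes as circles. The black line, the median of all genes in 20 length bins, falls from above 0 in short genes to below 0 in long genes, and most matrix genes lie below it (7 genes lie outside the axis).

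Long genes in general were lower in the B6-mtALR mice. Of the 3344 longest genes, with at least 3604 bases, 78.4% were below 0 with a median of -0.24, and 4.96% were called lower. Of the 3343 shortest genes 22.9% were below 0. Of the 42 matrix genes, 35 were among the longest genes, and these had a median of -0.87, and 13 of them were called. After the correction for length the median of the longest genes was 0.004, and that of these 35 genes -0.59.

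Of the proteoglycans of the basement membrane, both passed the test. Hspg2 codes for perlecan, a large heparan sulfate proteoglycan that binds growth factors, and lies on chromosome 4 (chr4:137468769-137570630). Its CPM was 22.1, 20.3, 26.0 and 20.3 in the B6-mtALR mice of 3 months and 22.4, 21.4 and 27.8 in those of 5 months. In B6-mtBPL it was 59.3 and 69.0 at 3 months and 36.2 and 31.9 at 4 months. Each B6-mtALR mouse lay below each B6-mtBPL mouse, and the B6-mtBPL mice of 4 months lay between. The log2 fold change was -1.54 (SE 0.14, edgeR adjusted p = 0.0037), and -1.23 after the correction for length (adjusted p = 0.012). That correction used a length of 6225 bases, below that of its coding transcripts. Over all 11 mice the exact permutation test, two-sided, gave p = 0.0030, the smallest that 7 against 4 mice allow.

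Agrn codes for agrin, which is known from the neuromuscular junction and also binds laminin in the bile duct and vessel walls of the liver. Its CPM was 28.8 to 33.0 in the 4 B6-mtALR mice of 3 months, 26.9 to 36.4 in those of 5 months and 43.0, 45.8, 40.3 and 36.8 in B6-mtBPL. All 7 B6-mtALR mice were again below all 4 B6-mtBPL mice, with 36.4 CPM in B6-mtALR mouse 3 beside 36.8 CPM in B6-mtBPL mouse 4. The log2 fold change was -0.53 (SE 0.11, adjusted p = 0.041), and -0.30 after the correction for length (adjusted p = 0.24). The nidogens, which bridge laminin and type IV collagen, did not pass the test, with Nid1 at -0.64 (SE 0.18, adjusted p = 0.086) and Nid2 at -0.19 (SE 0.21, adjusted p = 0.62).

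**Figure D3:**
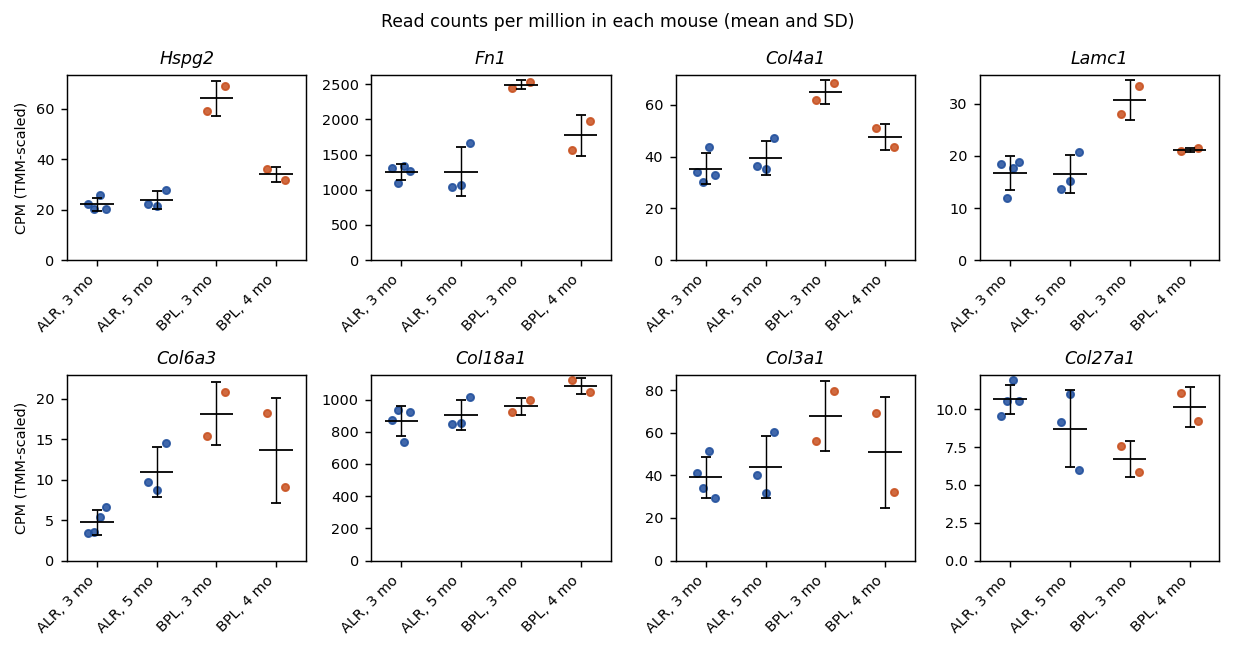
TMM-scaled CPM of 8 matrix genes is shown with a point for each mouse, and the lines and bars are the mean and SD of each strain and age. Hspg2 separates the strains in all 11 mice, Col6a3 is lowest in the B6-mtALR mice of 3 months, and Col18a1 overlaps between the strains.

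Laminins are trimers of an alpha, a beta and a gamma chain, and all 11 chains were tested. All 11 had a log2 fold change below 0, 5 of them passed the test, and 8 had an unadjusted p under 0.05. Of all 13372 genes tested, 2855 had such a p. Lamc1, the gamma chain of most laminins, had 18.5, 11.95, 17.7 and 18.9 CPM in the B6-mtALR mice of 3 months and 28.01, 33.4, 20.9 and 21.4 CPM in the B6-mtBPL mice. The 4 mice of each strain did not overlap, and the log2 fold change was -0.88 (SE 0.18, adjusted p = 0.038). The B6-mtALR mice of 5 months had 13.7, 15.2 and 20.7 CPM, so that all 7 B6-mtALR mice lay below all 4 B6-mtBPL mice, as they also did for Lamb1 and Lama5. With Hspg2 and Agrn these were 5 of the 42 genes, where 2.07% of all genes tested were so ordered.

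Of the beta chains, Lamb1 had -0.77 (SE 0.16, adjusted p = 0.045) and Lamb2, the chain of vessel and synaptic basement membranes, -0.87 (SE 0.17, adjusted p = 0.038). Lamb3, part of the laminin of skin epithelium, was at -0.25 (SE 0.23, adjusted p = 0.56). Of the alpha chains, Lama5, found in adult endothelial and biliary basement membranes, had 3.62 to 4.36 CPM in the 4 B6-mtALR mice of 3 months and 4.60 to 7.66 in B6-mtBPL (log2 fold change -0.88, SE 0.17, adjusted p = 0.037). Lama1, an early embryonic chain, had -1.01 (SE 0.22, adjusted p = 0.047). Its groups overlapped, with 3.69 to 7.09 and 6.77 to 11.7 CPM.

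Other laminin chains had at most 13.2 CPM and were less certain. Lama2, the chain of muscle, was at -1.30 (SE 0.33, adjusted p = 0.069), Lama3 at -1.05 (SE 0.31, adjusted p = 0.096) and Lama4, an endothelial chain, at -0.81 (SE 0.27, adjusted p = 0.13). Lamc3 was at -0.94 (SE 0.48, adjusted p = 0.29). None of these 4 passed after adjustment, and the unadjusted p was under 0.05 for Lama2 (0.0029), Lama3 (0.0068) and Lama4 (0.013). After the correction for length, all 11 chains were still below 0 with a median of -0.66, and none passed (0 of 11 by edgeR, 8 at an unadjusted p under 0.05).

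Type IV collagen is the network former of basement membranes, and Col4a1 and Col4a2 are its common chains, which lie head to head on chromosome 8 (Col4a1 chr8:11198423-11312826, Col4a2 chr8:11312805-11449287). Col4a1 had 34.1, 30.0, 43.9 and 33.0 CPM in the B6-mtALR mice of 3 months and 61.8, 68.3, 51.1 and 43.9 CPM in the B6-mtBPL mice. Col4a2 had 22.4, 20.4, 26.2 and 21.1 CPM and 39.8, 47.6, 35.9 and 29.4 CPM in the same mice. Among these 8 mice the strains did not overlap for Col4a2, and for Col4a1 the highest B6-mtALR mouse met the lowest B6-mtBPL mouse. B6-mtALR mouse 3, of 5 months, had 47.2 CPM of Col4a1 and 30.7 CPM of Col4a2. Both values lay above those of B6-mtBPL mouse 4. The log2 fold changes were -0.89 (SE 0.16, adjusted p = 0.030) for Col4a1 and -0.96 (SE 0.14, adjusted p = 0.024) for Col4a2, and -0.59 and -0.65 after the correction for length (adjusted p = 0.11 for both).

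The tissue-restricted chains Col4a3, Col4a4 and Col4a5, known from kidney glomeruli, had at most 4.94 CPM. Col4a3 was at -0.96 (SE 0.39), Col4a4 at -0.73 (SE 0.44) and Col4a5 at -0.15 (SE 0.41), with adjusted p-values of 0.20, 0.37 and 0.86. Of the multiplexins, which sit at the border of basement membranes and stroma, none passed (0 of 2 by edgeR and by DESeq2, and 0 at an unadjusted p under 0.05). Col18a1 had 736 to 938 CPM in the 4 B6-mtALR mice of 3 months and 921 to 1119 CPM in the B6-mtBPL mice, with a log2 fold change of -0.15 (SE 0.12, adjusted p = 0.51), and 0.089 after the correction for length. Col15a1 was at -0.29 (SE 0.28, adjusted p = 0.58). Col18a1 and Fn1, the genes with the highest mean TPM among the 60, thus gave different values, although the difference between them was not tested.

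Type VI collagen forms from Col6a1, Col6a2 and Col6a3 in equal parts. Col6a3 (chr1:90765923-90843971, minus strand) had 3.40, 3.55, 5.41 and 6.57 CPM in the B6-mtALR mice of 3 months and 15.4, 20.9, 18.2 and 9.07 CPM in B6-mtBPL. The strains did not overlap at these ages, and its log2 fold change of -1.95 (SE 0.31, adjusted p = 0.027) was the lowest of the 42. It was -1.76 after the correction for length (adjusted p = 0.097). The B6-mtALR mice of 5 months had 9.68, 8.73 and 14.5 CPM and overlapped with B6-mtBPL. Col6a1 was at -0.88 (SE 0.19, adjusted p = 0.045), with 5.55 to 7.47 and 8.73 to 13.1 CPM in the 8 mice, and Col6a2 at -0.95 (SE 0.26, adjusted p = 0.080). The ratio of Col6a1 to Col6a3 in coding TPM was 2.16 to 5.07 in the B6-mtALR mice of 3 months and 1.46 to 2.28 in B6-mtBPL.

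None of the fibrillar collagens passed by edgeR (0 of 8, with 5 at an unadjusted p under 0.05), and 4 passed by DESeq2. Among these 5 and these 4, Col27a1 was higher in B6-mtALR and the rest were lower. After the correction for length 4 of the 8 were below 0. Col1a1 had 5.86, 4.89, 8.99 and 3.96 CPM in the B6-mtALR mice of 3 months and 13.9, 18.8, 16.8 and 6.03 CPM in B6-mtBPL, where mouse 4 lay among the B6-mtALR mice. Its log2 fold change was -1.46 (SE 0.39, adjusted p = 0.078). Col1a2 was at -0.88 (SE 0.25, adjusted p = 0.087), Col3a1 at -0.80 (SE 0.30, adjusted p = 0.16), Col5a1 at -0.90 (SE 0.22, adjusted p = 0.066) and Col5a2, a partner of Col5a1, at -0.18 (SE 0.20, adjusted p = 0.64).

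Of the 6 genes above 0, Col27a1, a minor fibrillar collagen of cartilage, had the highest value with 0.66 (SE 0.17, edgeR adjusted p = 0.070). It passed by DESeq2 (adjusted p = 0.016). The CPM of Col27a1 was 9.60, 10.6, 11.97 and 10.5 in the B6-mtALR mice of 3 months and 7.55, 5.86, 11.1 and 9.24 in B6-mtBPL, so the strains overlapped. Col5a3 was at 0.33 (SE 0.24, adjusted p = 0.45). Col11a2, Col13a1, Col22a1 and Col25a1 were the others, from 0.03 to 0.42. Among the collagens that attach to fibrils, 1 of 5 tested passed, Col14a1, with 49.2 to 65.9 CPM and 68.9 to 97.9 CPM in the 8 mice (log2 fold change -0.74, SE 0.16, adjusted p = 0.049).

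**Figure D4:**
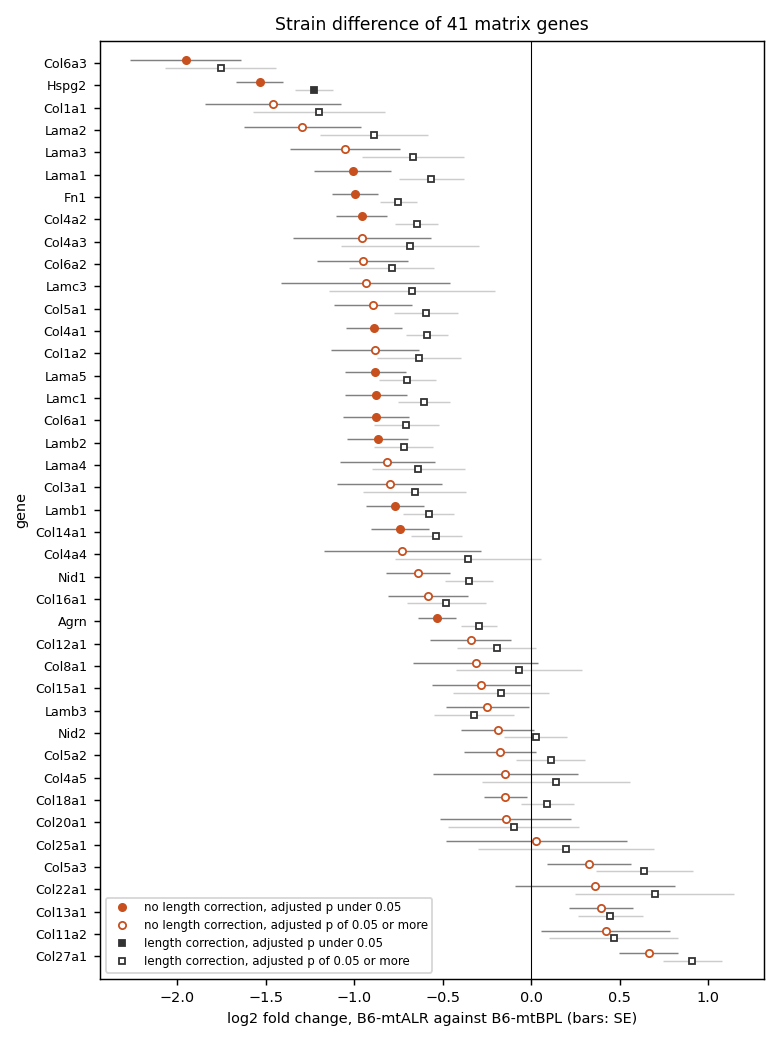
The log2 fold change of B6-mtALR against B6-mtBPL with its SE is shown for 41 of the 42 matrix genes tested, as circles without and squares with the correction for transcript length, and filled symbols have an adjusted p under 0.05. The circles of 13 genes are filled, all to the left of 0, and of the squares only that of Hspg2.

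Fn1 was examined by transcript as well as by gene. Its CPM was 1311, 1091, 1344 and 1261 in the B6-mtALR mice of 3 months, 1043, 1066 and 1665 in those of 5 months, and 2444, 2535, 1566 and 1978 in B6-mtBPL. The 4 B6-mtALR mice of 3 months lay below the 4 B6-mtBPL mice, and the log2 fold change was -0.998 (SE 0.13, adjusted p = 0.021), and -0.75 after the correction for length (adjusted p = 0.056). B6-mtALR mouse 3 lay above B6-mtBPL mouse 3.

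Of the reads of full-length Fn1 transcripts, kallisto gave 0.11 to 0.62% to the transcript that keeps EIIIB and 1.33 to 4.21% to those that keep EIIIA, so nearly all lacked both exons in both strains, as the plasma form does. The exon of the variable region (from chr1:71597281) has a length of 107, 392 or 467 bases. The shortest form took 42.9 to 65.9% of the full-length reads. The longest form took 7.07 to 15.4% in the B6-mtALR mice and 17.7 to 20.6% in the B6-mtBPL mice, without overlap. Its share was 7.07 to 9.1% in B6-mtALR mice 1, 2, 5 and 7, which had length slopes of -0.42 to -0.20. In B6-mtALR mice 3, 4 and 6, with slopes of -0.08 to 0.16, it was 12.7 to 15.4%. B6-mtBPL mouse 3 had 17.8% at a slope of 0.08. The relation of this share to the length slope was not tested. These shares are estimates from reads of 75 bases on 1 end, most of which do not cross the exons that differ.

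A short Fn1 transcript with a retained intron, Fn1-202 (4022 bases, 17 exons, chr1:71585526-71609567, the 3′ part of the gene), took 2.16 to 4.78% of the Fn1 reads in B6-mtBPL and 8.31 to 47.6% in B6-mtALR. Its share was highest in the mice with the lowest length slopes. Over the 11 mice the share and the length slope had r = -0.87 (permutation p = 0.00053, adjusted 0.00088) and Spearman rho = -0.81 (p = 0.0043, adjusted 0.0071) as 1 of 5 relations computed. Without the 2 mice farthest from the median slope, r was -0.87, and within the 7 B6-mtALR mice r was -0.83 (exact permutation p = 0.033, adjusted 0.055). The permutations over the 11 mice mix the strains, whose shares did not overlap.

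The CPM of Fn1 on the log2 scale also moved with the length slope, with r = 0.95 (permutation p = 1e-05, the smallest that 100000 permutations give, adjusted 5e-05) and rho = 0.96 (p = 2e-05, adjusted 0.0001). Within the 7 B6-mtALR mice r was 0.92 (exact permutation p = 0.0014, adjusted 0.0069), and without the 2 farthest mice 0.93. For Hspg2, r was 0.87 over 11 mice (p = 0.00021, adjusted 0.00053, rho = 0.88 with p = 0.00074, adjusted 0.0019) and 0.84 within B6-mtALR (exact permutation p = 0.019, adjusted 0.049), and 0.87 without the 2 farthest mice. Col6a3 had r = 0.60 (p = 0.056, adjusted 0.071) and rho = 0.60 (p = 0.056, adjusted 0.070), with 0.56 without the 2 farthest mice and 0.17 within B6-mtALR (exact permutation p = 0.71, adjusted 0.85). Col18a1 had r = 0.32 (p = 0.33, adjusted 0.33) and rho = 0.37 (p = 0.26, adjusted 0.26), with 0.29 without the 2 farthest mice and -0.09 within B6-mtALR (exact permutation p = 0.85, adjusted 0.85). The slope was itself computed from log2 CPM and transcript length, so the CPM of long genes tends to follow it by construction. No r is given for other genes of like length. Whether the relation is particular to these genes thus cannot be told from these r and p-values. The permutations over 11 mice also mix the strains, and the highest slopes were in B6-mtBPL mice. B6-mtBPL has too few mice for its own value. RNA integrity was not analysed here, and its part in these differences was not tested.

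**Figure D5:**
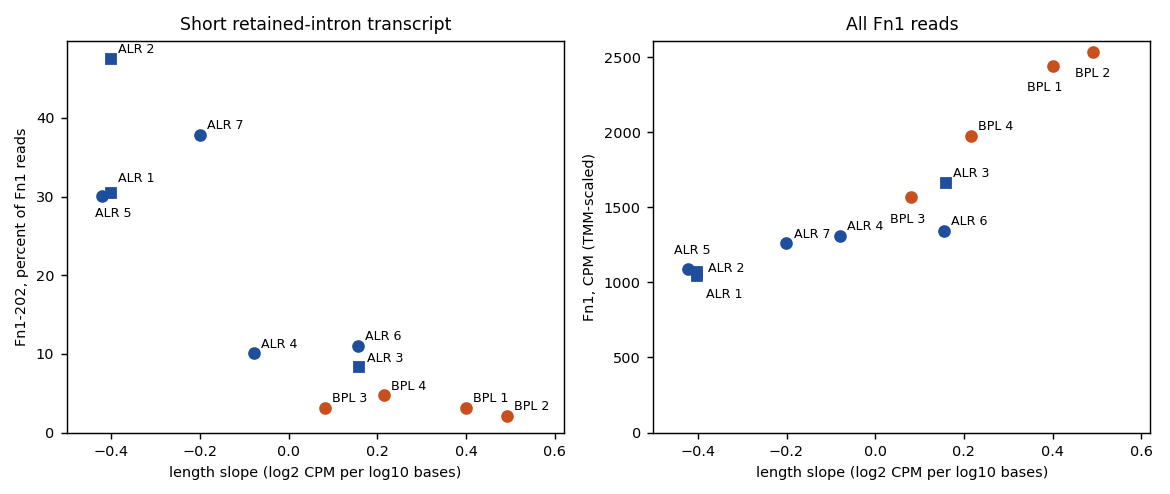
The share of Fn1 reads in the short transcript Fn1-202 (left) and the CPM of Fn1 (right) are plotted against the length slope of each library, with B6-mtALR in blue (squares at 5 months) and B6-mtBPL in orange. The share is lowest (2.16%) and the CPM highest (2535) in B6-mtBPL mouse 2, the library with the highest slope.

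Short transcripts of 3 other matrix genes were also examined. The short 3′ transcript Agrn-205 took 8.15 to 10.8% of the Agrn reads in B6-mtBPL and 10.8 to 24.8% in B6-mtALR, and Hspg2-202, of 820 bases, took 2.01 to 6.55% and 6.79 to 14.1% of the Hspg2 reads. Col6a3-206, of 646 bases, took 2.65 to 4.36% of the Col6a3 reads in B6-mtBPL and 0 to 13.9% in B6-mtALR, with overlap. Col18a1 was split between Col18a1-203 (4791 bases) and the longer Col18a1-202 (5063 bases), which begins further upstream and ends further downstream, with 35.2 to 52.6% of the reads in Col18a1-202. Col18a1-202 took 35.2 to 37.2% in B6-mtBPL and 35.6 to 52.6% in B6-mtALR.

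Genes that act on the matrix showed smaller medians than the 42 genes, and the lists hold genes of the same pathways chosen by role. Of 27 tested genes of collagen synthesis and cross-linking, 16 were below 0. Of the 27, 1 was called lower, Pxdn at -0.64 (SE 0.13, adjusted p = 0.042), which cross-links type IV collagen, and 1 was called higher, Ppib at 0.50 (SE 0.11, adjusted p = 0.048), which helps collagen fold. The median was -0.13. Of 22 matrix receptors 18 were below 0, with a median of -0.33, and 1 was called lower. This was Itga8 at -0.81 (SE 0.17, adjusted p = 0.045), the alpha chain of an integrin that binds fibronectin and nephronectin. Of 12 proteases and inhibitors 7 were below 0 and none passed (0 by edgeR, 4 at an unadjusted p under 0.05, 1 by DESeq2). Of 24 small proteoglycans and other matrix proteins 22 were below 0 (21 after the correction for length), with a median of -0.48, and 3 were called lower. These were the microfibril gene Fbn1 at -1.42 (SE 0.24, adjusted p = 0.030), Thbs1 (thrombospondin) at -1.38 (SE 0.30, adjusted p = 0.048) and Prelp at -0.52 (SE 0.10, adjusted p = 0.038). After the correction for length none of these 6 genes passed (0 by edgeR, 5 at an unadjusted p under 0.05).

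In whole liver, fewer cells of a type and less RNA per cell cannot be told apart. The markers of hepatocytes were the highest of the lists, with a summed level of 96950 to 117400 TPM in the 11 mice, and no list had a marker at 0 in all mice. Marker lists differed in length, with a median of 4105 bases for liver sinusoidal endothelial cells, 1788 for Kupffer cells and 1474 for hepatocytes. Of 10 sinusoidal endothelial markers tested, 8 were below 0 and 5 were called lower (Stab1 at -1.03, Stab2 at -1.36, Kdr at -0.78, Flt4 at -0.73 and Oit3 at -0.62). Clec4g at 0.10 and Lyve1 at 0.16 were above 0. The median of the 10 was -0.51, and -0.36 after the correction for length, with 9 below 0. Their summed level was 210 to 224 TPM in the B6-mtALR mice of 3 months, 220 to 253 TPM in those of 5 months, 295 to 317 TPM in B6-mtBPL at 3 months and 234 to 256 TPM at 4 months.

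Of 8 vascular endothelial markers 6 were below 0 and 2 were called lower, Vwf at -1.15 and Cdh5 at -0.64. The summed level of the list was 68.4 to 86.6 TPM in the B6-mtALR mice of 3 months and 83.4 to 106 TPM in B6-mtBPL. Of 13 stellate cell markers 7 were below 0 and 2 were called lower, Reln at -1.24 and Pdgfrb at -0.84, while the summed levels of 389 to 475 TPM and 384 to 486 TPM overlapped. Of 9 markers of portal fibroblasts and mesothelium 8 were below 0 and none passed (0 by edgeR, 3 at an unadjusted p under 0.05, 1 by DESeq2), and their summed levels of 45.1 to 52.2 TPM and 38.5 to 70.0 TPM overlapped. The median of these 9 was -0.63, and -0.71 after the correction for length. Of 4 smooth muscle markers tested 3 were below 0 and none passed (0 by edgeR, 3 at an unadjusted p under 0.05, 1 by DESeq2), with 6.16 to 8.91 and 7.69 to 14.5 TPM. The median of these 4 was -0.69, and -0.58 after the correction for length.

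Kupffer cell markers were not lower, with 7 of 9 above 0 and a median of 0.14 (0 passed by edgeR and by DESeq2, and 0 at an unadjusted p under 0.05). Their summed level was 434 to 491 TPM in the B6-mtALR mice of 3 months and 406 to 515 TPM in B6-mtBPL. Of 6 cholangiocyte markers 5 were below 0 and none passed (0 by edgeR, DESeq2 and at an unadjusted p under 0.05), with 43.6 to 108 and 48.8 to 136 TPM. Of 9 hepatocyte markers 6 were above 0, with a median of 0.11, and none passed (0 by edgeR, 1 at an unadjusted p under 0.05, 1 by DESeq2). With the length trend taken out, 6 of these 9 were below 0, with a median of -0.067. Of the 9 Kupffer cell markers 3 were then below 0, with a median of 0.02. After the correction for length, Stab1 at -0.85 (edgeR adjusted p = 0.047) and Reln at -1.07 (adjusted p = 0.049) were the markers that passed. The part of any of these cell types in the differences of the matrix genes was not tested.

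The second comparison asked whether the matrix genes differed with age within B6-mtALR, 3 mice of 5 months against 4 of 3 months. None of the 42 genes tested passed (0 by edgeR, 6 at an unadjusted p under 0.05, 2 by DESeq2), where 0.793% of all genes passed. An unadjusted p under 0.05 was met by 1344 of all 13368 genes tested. The median log2 fold change was 0.17, with 30 genes above 0, compared to 0.008 over all genes tested. Col6a3 had 3.40 to 6.57 CPM at 3 months and 8.73 to 14.5 CPM at 5 months, without overlap, with a log2 fold change of 1.23 (SE 0.26, adjusted p = 0.075). Col6a1 had 5.55 to 7.47 CPM and 9.24 to 12.3 CPM, also without overlap, with 0.70 (SE 0.16, adjusted p = 0.10). These were the 2 genes that passed by DESeq2, and without B6-mtALR mouse 7 Col6a3 passed by edgeR too. The third chain, Col6a2, was at 0.44 (SE 0.23, adjusted p = 0.57), and Hspg2 and Fn1 at 0.11 (SE 0.15) and 0.02 (SE 0.18).

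The third comparison set the B6-mtBPL mice of 4 months against those of 3 months, 2 mice each. None of the 46 genes tested passed (0 by edgeR, 8 at an unadjusted p under 0.05, 1 by DESeq2), where 0.118% of all genes passed. An unadjusted p under 0.05 was met by 1456 of all 13615 genes tested. The median log2 fold change was -0.30, with 36 genes below 0, compared to 0.006 over all genes tested. Hspg2 was at -0.92 (SE 0.14, adjusted p = 0.11), with 36.2 and 31.9 CPM against 59.3 and 69.0 CPM, and was the gene that passed by DESeq2. Fn1 was at -0.49 (SE 0.16, adjusted p = 0.39), Lamc1 at -0.54 (SE 0.14, adjusted p = 0.29) and Col4a1 at -0.46 (SE 0.13, adjusted p = 0.37). Leaving out a mouse would leave 1 mouse at its age, so no genes are counted for such fits. This comparison uses the same 2 mice of 3 months as the strain comparison, and the age groups also differ in length slope.

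The other 18 genes did not pass the filter on low counts in the strain comparison, and none of them had more than 17 estimated counts in any mouse. They were Col2a1, Col4a6, Col6a4, Col6a5, Col6a6, Col7a1, Col8a2, Col9a1, Col9a2, Col9a3, Col10a1, Col11a1, Col17a1, Col19a1, Col23a1, Col24a1, Col26a1 and Col28a1. Most of these are known from cartilage, skin, kidney or nerve. In a fit without the filter, 16 of the 18 could be tested and none passed (0 by edgeR). Of these, 1 had an unadjusted p under 0.05, Col6a5, a further type VI chain, at -1.87 (adjusted p = 0.13). In Col6a5, Col8a2 and Col23a1 the 4 B6-mtALR mice of 3 months all lay below the 4 B6-mtBPL mice, at under 1 CPM in each of the 11 mice. These 3 genes were named after their values were seen. The share of all genes with such low counts that were so ordered is not given.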

How the data were processed

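Per the labels, poly-A RNA of 11 livers was sequenced as single-end reads of 75 bases, and the authors ran kallisto 0.44.0 on mm10 and deposited estimated counts of each transcript without normalisation, beside TPM values scaled for length and library. Of 96626 transcripts, 95213 (98.5%) matched GENCODE M21 (GRCm38) by identifier and held at least 99.6% of the counts of each mouse. Counts were summed per gene and rounded. edgeR 4.0.16 in R 4.3.3 was used with filterByExpr (minimum count 10, minimum total 15), TMM scaling and the quasi-likelihood test, and p-values were adjusted over all genes tested (Benjamini-Hochberg). The strain fit held age and strain in the 8 mice of 3 to 4 months. A positive log2 fold change is higher in B6-mtALR or at the later age. SE was derived from the test statistic. CPM was TMM-scaled over the 11 mice. Transcript length was weighted by TPM, and the length correction took out a lowess curve (span 0.3) per mouse. Spreads cover mice, and counting error is smaller. DESeq2 1.42.0 and limma 3.58.1 served as alternatives. The genes named were those with an adjusted p under 0.05 in any comparison, the 12 highest by mean TPM, and the basement membrane, fibronectin and type I, III, IV, V, VI, XV and XVIII collagen genes tested. Col27a1, Col5a3 and the other genes above 0 were named after their values were seen. The genes and lists were chosen with earlier results of these data known. The edgeR fit and length correction were tested on simulated data. No 2 libraries of a strain agreed within sampling noise (chi-square per degree of freedom of at least 20.9). Nothing in the labels gives batches. The values of 1 gene are not reported here, and it stays in the counts.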

Additional observations from a re-analysis of the deposited data

How the results depend on the processing

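Among the alternatives run, none turned the direction of the median log2 fold change between the strains or of any of the 13 genes that passed, but most changed how many passed. In place of 13 genes, DESeq2 gave 20 and no age term 6, and the length correction gave 1. All 11 mice with age and all 11 mice without age gave 0 each, with 27 and 23 genes at an unadjusted p under 0.05. Leaving out 1 mouse in turn gave 0 to 18. The median of -0.76 became -0.54 in all 11 mice without age. With the replicate block (a term for each replicate number, all 11 mice) 0 genes passed and the median was -0.40, and with the replicate block and the length correction 0 and -0.23. The replicate numbers were not taken to pair the mice, since the deviations of same-numbered mice correlated from -0.37 to 0.14. Of alternatives chosen after seeing the data, the length correction gave 0 and -0.47 with no age term and 0 and -0.41 in all 11 mice with age, and the B6-mtBPL mice of 4 months only gave 0 and -0.42, and 0 and -0.31 with the length correction. The cause was not tested. For age in B6-mtALR, DESeq2 gave 2 genes, no filter 1, and leaving out a mouse 0 to 1. For age in B6-mtBPL, DESeq2 gave 1.

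Genes that did not pass could turn direction between the strains. With the length correction these were Col18a1 (0.089), Nid2 (0.025), Col5a2 (0.109) and Col4a5 (0.139). With the replicate block this was Lamb3 (0.095), and with the length correction added Lamb3 (0.02), Col18a1 (0.019), Col5a2 (0.13) and Col4a4 (0.01). Leaving out 1 mouse in turn, Col4a5 ranged from -0.512 to 0.334, the highest without B6-mtBPL mouse 2. With the length correction and no age term, Nid2 was at 0.088, Col5a2 at 0.207 and Col4a5 at 0.116, and in all 11 mice with age at 0.013, 0.18 and 0.056. With the B6-mtBPL mice of 4 months only, Nid2 was at 0.053 and Col5a2 at 0.172, and with the length correction 0.154 and 0.314, and Col4a5 at 0.091. For age in B6-mtALR, leaving out a mouse gave -0.011 (without mouse 3) to 0.191 for Hspg2 and, for Fn1, -0.237 without mouse 3 and -0.042 without mouse 5. For age in B6-mtBPL, Col6a3 ranged from -0.999 to 0.006 and Col6a1 reached 0.108, both highest without mouse 4. With 2 B6-mtBPL mice of 3 months, the strain and the libraries with the highest length slopes cannot be told apart.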
